A study of Homo sapiens with 30 samples.

Results

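The genes described here encode the lamins and the proteins that tie the nuclear lamina to the inner nuclear membrane and the cytoskeleton: LMNA, LMNB1, LMNB2, LBR, EMD, SUN1, SUN2, SYNE1, SYNE2 and TMPO. They were taken by symbol from the count tables, which held 10 of 10. All 10 were among the 15381 genes, of 26364 listed, that had enough counts to be tested. The measurements were polyadenylated RNA sequencing of A375, an established human melanoma line, in 30 libraries, 3 in each of 10 groups. Cells were sorted by fluorescence for surface integrin β4 (ITGB4, a laminin receptor subunit) and driven through transwell membranes with 5 µm pores coated with fibronectin, pores that the nucleus has to deform to pass. Bottom 10 cells had crossed in 10 rounds and Top 10 cells had stayed on top in 10 rounds, each as an ITGB4-positive and an ITGB4-negative sort. Bottom 5 negative cells had crossed in 5 rounds and Top 5 positive cells had stayed on top in 5. Another pair of groups was sorted from unmigrated cells first and then collected below the membrane, the negative sort after 4 rounds and the positive sort after 5. Parental positive and Parental negative cells were sorted without migration and are the baseline. No group carries an engineered change, all groups share 1 line, and cells were grown out in culture between rounds. The samples are labelled as biological replicates, but nothing says whether each came from its own culture, so the spread behind every p may be technical. Bottom, Top and Parental name the population, and positive and negative name the sort. ITGB4 transcripts averaged 100.1 ± 66.6 CPM in Parental positive and 27.8 ± 5.13 CPM in Parental negative cells (SD, n = 3 each), and the positive sort had the higher mean in Bottom 10 and Top 10 cells too. The RNA does not follow the sort in every group: Top 5 positive cells averaged 28.2 ± 14.9 CPM and Bottom 5 negative cells 86.3 ± 61.2, while the negative sort after 4 crossings averaged 135 ± 162 CPM, with wide spreads.

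As background, lamins are intermediate filament proteins that form a mesh under the inner nuclear membrane. LMNA encodes lamins A and C, whose abundance sets much of the stiffness of the nucleus, while LMNB1 and LMNB2 encode the B-type lamins, which stay farnesylated and attached to the membrane. LBR, emerin (EMD) and the LAP2 proteins (TMPO) bind lamins and chromatin at the inner membrane. SUN1 and SUN2 cross the inner membrane and hold the KASH domains of the nesprins SYNE1 and SYNE2 in the outer membrane, and this LINC complex couples the nucleus to actin and microtubules. Lamin A/C is known to limit the passage of nuclei through narrow pores, and LINC proteins are known to transmit the force that pulls or pushes the nucleus. The counts pool all transcripts of a gene, so lamin A and lamin C, the forms of LAP2, and giant and short nesprins were not told apart.

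Counts assigned to genes were 14258919 to 29134945 per library. Levels are given in CPM, which scales counts to library size, here with TMM factors. Among melanocyte lineage genes SOX10 lay between 287 and 1460 CPM and MITF between 23.2 and 66.3, whereas TYR had 0 counts in 28 of 30 libraries, and the T cell gene CD3E had 0 in all 30. Along the second principal component of all genes, 6 libraries stood apart: Bottom 10 positive replicate 3, Bottom 5 negative replicate 2, the negative sort after 4 crossings replicate 2, Top 10 negative replicate 1, and Top 5 positive replicates 1 and 3. In them genes with long exons were low relative to genes with short ones: the median of the longest 10% less that of the shortest 10% lay at -1.10 to -0.52 on the log2 scale, against -0.04 to 0.45 in the other 24. Log2 fold changes that move by over 1.5 times without these libraries are given with and without them. Another set of 6 libraries, 1 in each of 6 groups, had a low mean of 30 G2 and mitosis genes, at 5.82 to 6.43 log2 CPM, against 6.74 to 7.27 in the other 24. Top 5 positive replicate 1 belonged to both sets.

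Per kilobase of exon the 10 genes kept a wide order of levels. LMNA averaged 279 ± 58.6 CPM per kilobase (SD, n = 30 libraries) and its lowest library, at 155, lay above every library of every other gene of the set. LMNB1 followed at 74.7 ± 22.7 and LMNB2 at 54.1 ± 16.1 CPM per kilobase, with ranges that overlapped. EMD averaged 36.4 ± 6.16, TMPO 30.3 ± 9.18, LBR 21.3 ± 5.33 and SUN2 20.2 ± 2.38 CPM per kilobase, each overlapping its neighbours in this order. SUN1 stood lower, at 8.32 ± 1.24 CPM per kilobase, and none of its libraries reached the lowest one of SUN2 (16.6). The nesprin genes were lowest, SYNE1 at 0.911 ± 0.413 and SYNE2 at 0.633 ± 0.228 CPM per kilobase, and overlapped each other. The lengths are those of all annotated exons together, up to 46064 bases for SYNE1, so genes read mostly as short transcripts are understated.

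**Figure D1:**
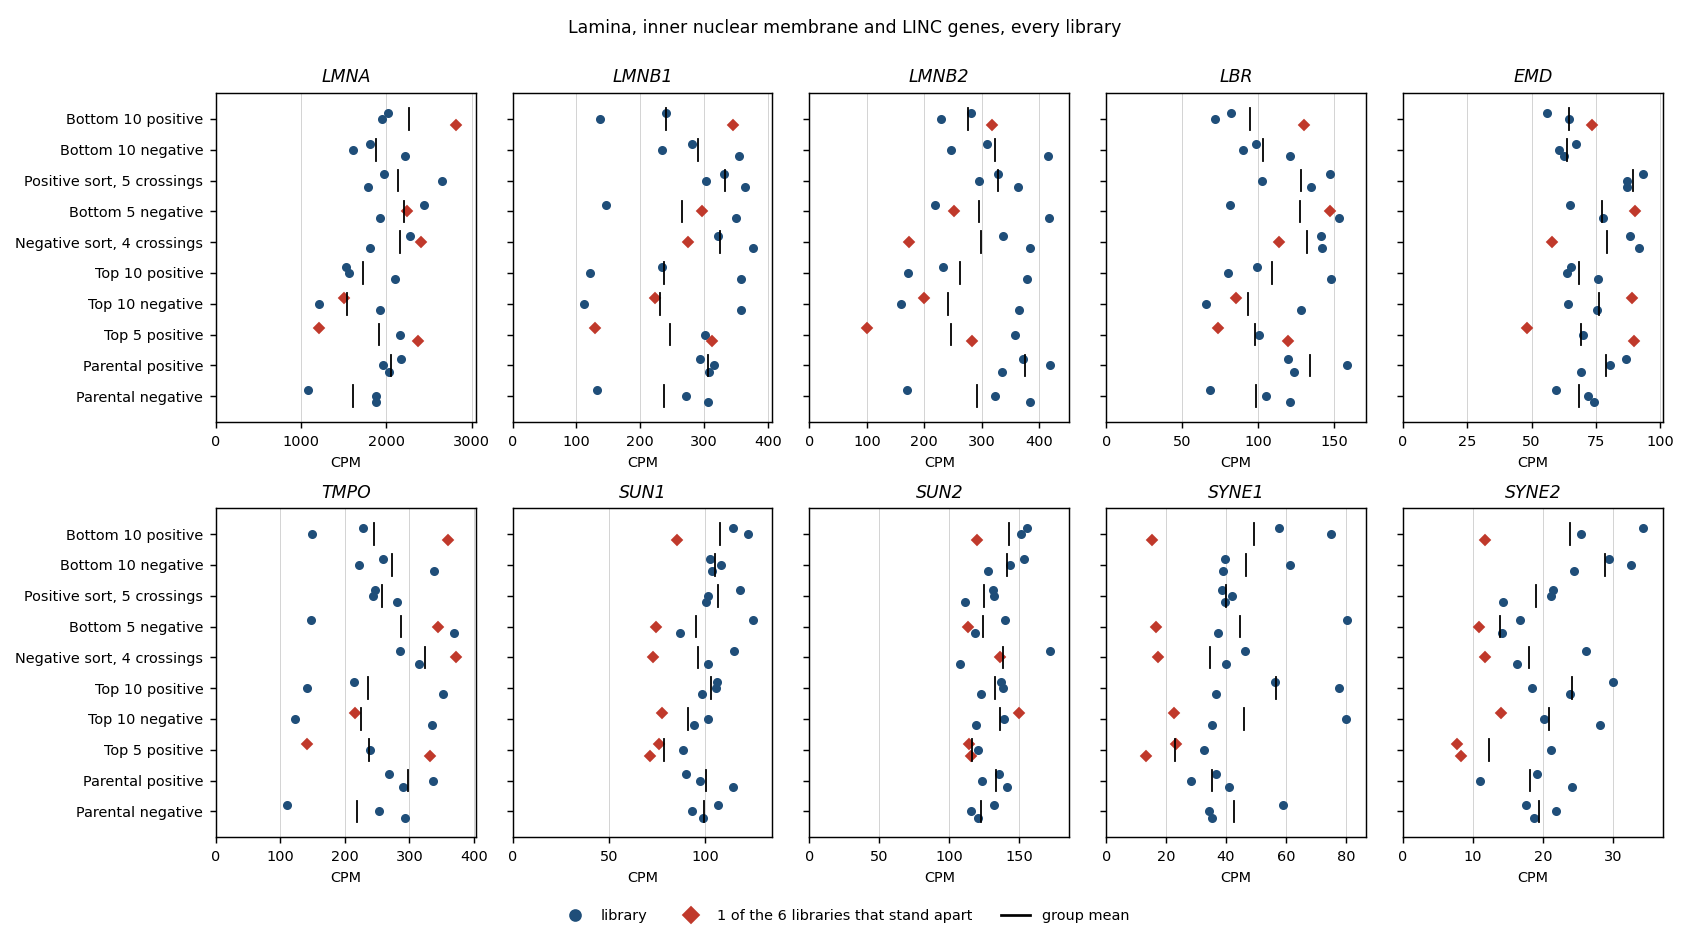
Level of each gene in every library, in CPM on axes that start at 0, by group, with migrated groups above Parental; points are libraries, red diamonds the 6 libraries that stand apart, and vertical bars group means. The ranges of the groups overlap for most genes, and the red points lie low for SYNE1 and SUN1.

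None of the 10 genes passed the test in any of 13 comparisons of groups. Of 130 tests, 0 reached an adjusted p of 0.05 (edgeR quasi-likelihood test, Benjamini-Hochberg over all genes), 0 had an unadjusted p under 0.05 and DESeq2 also called 0. The smallest unadjusted p was 0.0712, for SUN1 in Top 5 against Parental positive cells (log2 fold change -0.35 ± 0.19; by edgeR, adjusted p = 0.315). An unadjusted p under 0.05 was reached by 1.71% to 19.5% of all genes, depending on the comparison, and the adjusted threshold called few genes of the whole table. Between the sorts it called 0% of tested genes in Bottom 10, 0.013% in Top 10 and 0.0585% in Parental cells. Between Bottom 10 and Top 10 cells it called 0.943% in the positive and 1.33% in the negative sort. Against Parental cells it called 0.247% for Bottom 10 positive, 0.325% for Bottom 10 negative, 0.384% for Top 10 positive and 0.0455% for Top 10 negative cells. It called 2% for the negative sort after 4 crossings, 0.039% for the positive sort after 5, 0.858% for Bottom 5 negative and 0.163% for Top 5 positive cells. With so few calls, 0 of 10 is what the background share would give, and the intervals carry more of the information. Across the 13 comparisons the 95% confidence intervals of the log2 fold change stayed within -0.52 to 0.53 for SUN2, -0.70 to 0.62 for EMD, -0.74 to 0.59 for SUN1 and -0.78 to 0.99 for LMNA. They were wider for LBR (-1.11 to 1.06), TMPO (-1.19 to 1.42), LMNB1 (-1.25 to 1.34), LMNB2 (-1.44 to 1.25) and SYNE2 (-1.37 to 1.38), and widest for SYNE1 (-1.72 to 1.79). A log2 change of 1 in either direction thus lay outside every interval of the SUN genes, EMD and LMNA, and inside at least 1 interval of each other gene. In 9 of the 130 tests (6.92%) the libraries of the groups did not overlap, against 14.2% over all genes and comparisons (5.85% to 19.5% by comparison).

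**Figure D2:**
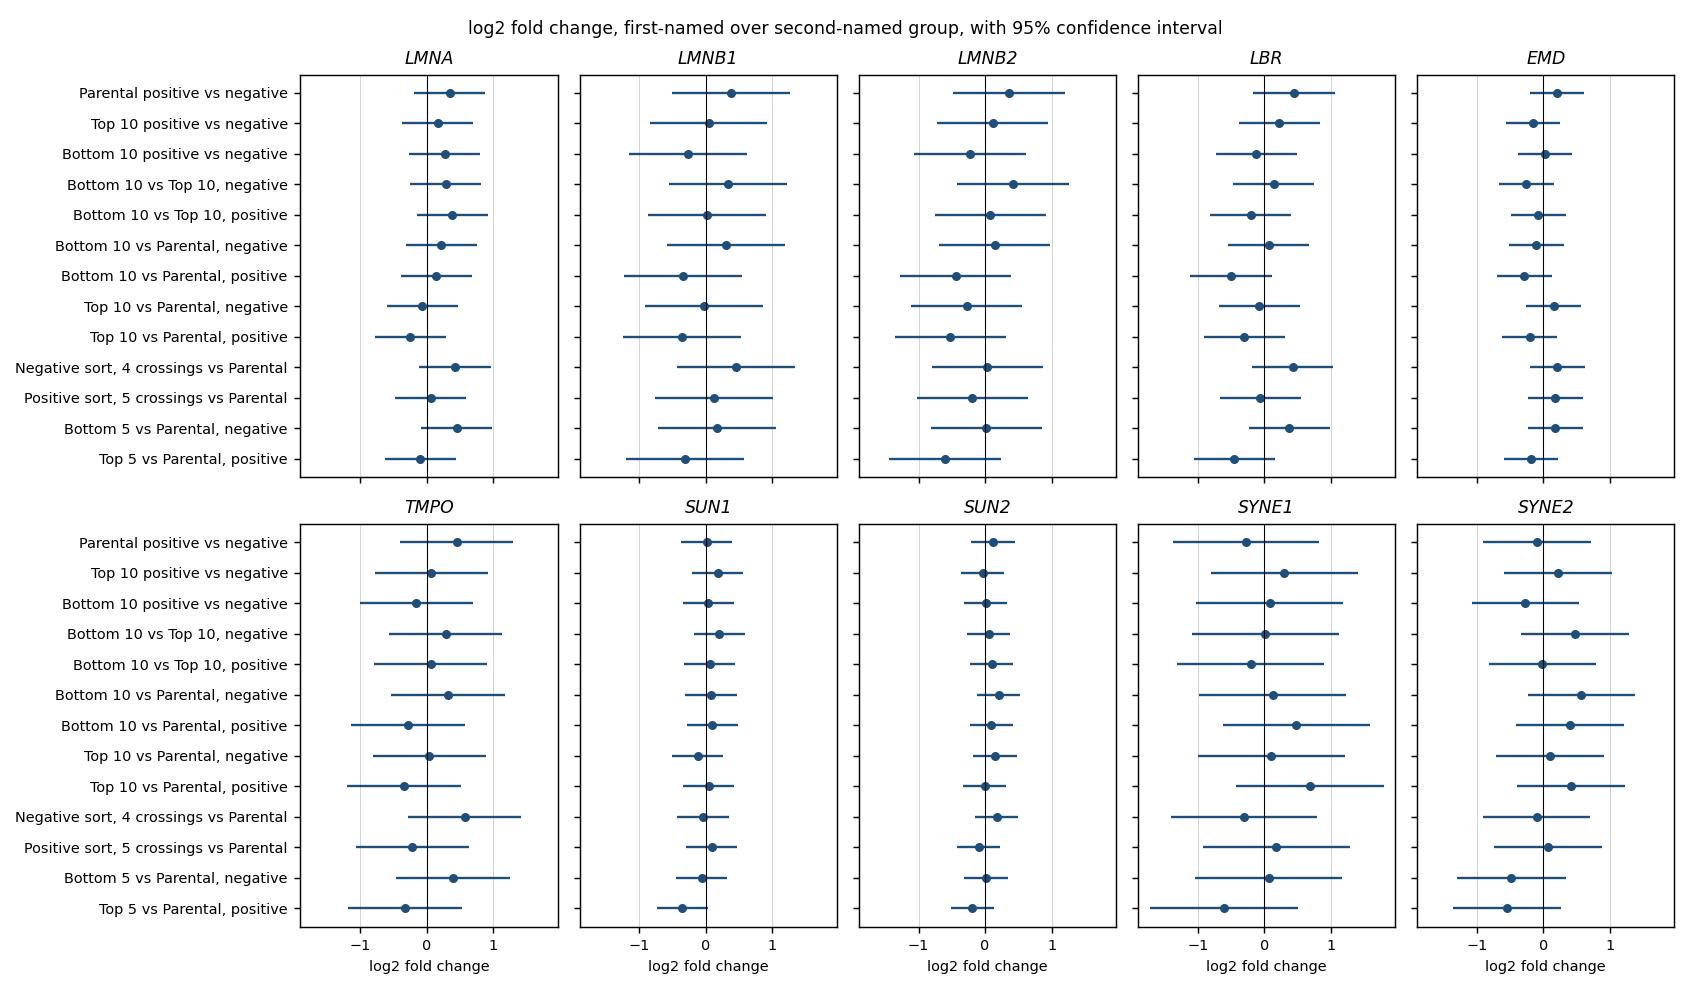
Log2 fold change of each gene (x axis) in 13 comparisons (y axis), first-named over second-named group, with the 95% confidence interval as a line. All 130 intervals include 0, and they are narrowest for SUN2 and widest for SYNE1.

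Most of the 10 genes followed the level of G2 and mitosis genes from library to library within the groups. For each gene a slope on the mean log2 CPM of 30 G2 and mitosis genes (none of them among the 10) was fitted beside the group means. The fit was added after the data had been seen, and it called 7 of the 10 genes where it called 45.6% of all tested genes. Higher with the mean were 6 of 10, against 21.3% of all genes, and 1 was lower with it, against 24.3%. LMNB1 had the steepest slope, 1.32 ± 0.08 log2 units per log2 unit of the mean (edgeR adjusted p = 1.53e-10), and its p was the 6th smallest of 15381. TMPO had a slope of 1.24 ± 0.09 (edgeR adjusted p = 1.64e-09), with the 14th smallest p, LMNB2 of 1.02 ± 0.16 (edgeR adjusted p = 2.82e-05) and LBR of 0.81 ± 0.09 (edgeR adjusted p = 3.55e-07). Slopes above 1 that passed the test were found in 4.52% of all genes and in 3 of these 10. The fit takes the libraries as independent, though libraries with the same replicate number resembled each other in some comparisons. With replicate number as a block the LMNB1 slope was 1.27 (edgeR adjusted p = 1.18e-07), in a fit that called 26.7% of all genes.

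The libraries show the same in their levels. Their split uses the same mean as the slopes, so it describes the fit again and is no separate test. The share of all genes that separate the libraries in this way was not counted. LMNB1 was at 112 to 147 CPM (median 130.5) in the 6 libraries with a low mean, against 224 to 377 CPM (median 307) in the other 24, with no overlap. TMPO was at 111 to 149 CPM (median 142) in the 6 libraries with a low mean, against 215 to 373 CPM (median 288) in the other 24, again with no overlap. LBR touched at the edge, with 66.0 to 81.6 CPM (median 72.7) in the 6 libraries with a low mean, against 81.8 to 158 CPM (median 121) in the other 24. Those 6 libraries were single replicates of Bottom 10 positive, Bottom 5 negative, Top 10 positive, Top 10 negative, Top 5 positive and Parental negative cells, so a low library occurred among crossing, non-crossing and unmigrated cells and in both sorts. Bulk counts cannot tell a smaller share of cells in G2 and mitosis from less of these transcripts per cell.

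LMNA and EMD had shallower slopes, 0.48 ± 0.13 (edgeR adjusted p = 0.00464) and 0.34 ± 0.11 (edgeR adjusted p = 0.0136). SYNE1 ran the other way, with -1.07 ± 0.26 (edgeR adjusted p = 0.00189). SUN1 (-0.20 ± 0.11), SUN2 (-0.17 ± 0.09) and SYNE2 (0.09 ± 0.26) did not pass (edgeR adjusted p of 0.129, 0.132 and 0.804). All 7 calls stood when any 1 library was left out, in fits that called 38.9% to 50.3% of all genes. They also stood without the 6 libraries that stood apart, where the fit called 51.6% of all genes. Within the 24 libraries with a mean above 6.5, where the fit called 9.06% of all genes, 4 calls stood. There LMNB1 had a slope of 1.38, TMPO of 1.44 and LBR of 1.40 (edgeR adjusted p = 0.0121 each), and LMNB2 of 1.53 (edgeR adjusted p = 0.0394). The slopes of LMNA (0.65), EMD (0.22) and SYNE1 (-1.03) did not pass there (edgeR adjusted p of 0.245, 0.696 and 0.471), so those 3 calls needed the 6 libraries with a low mean.

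**Figure D3:**
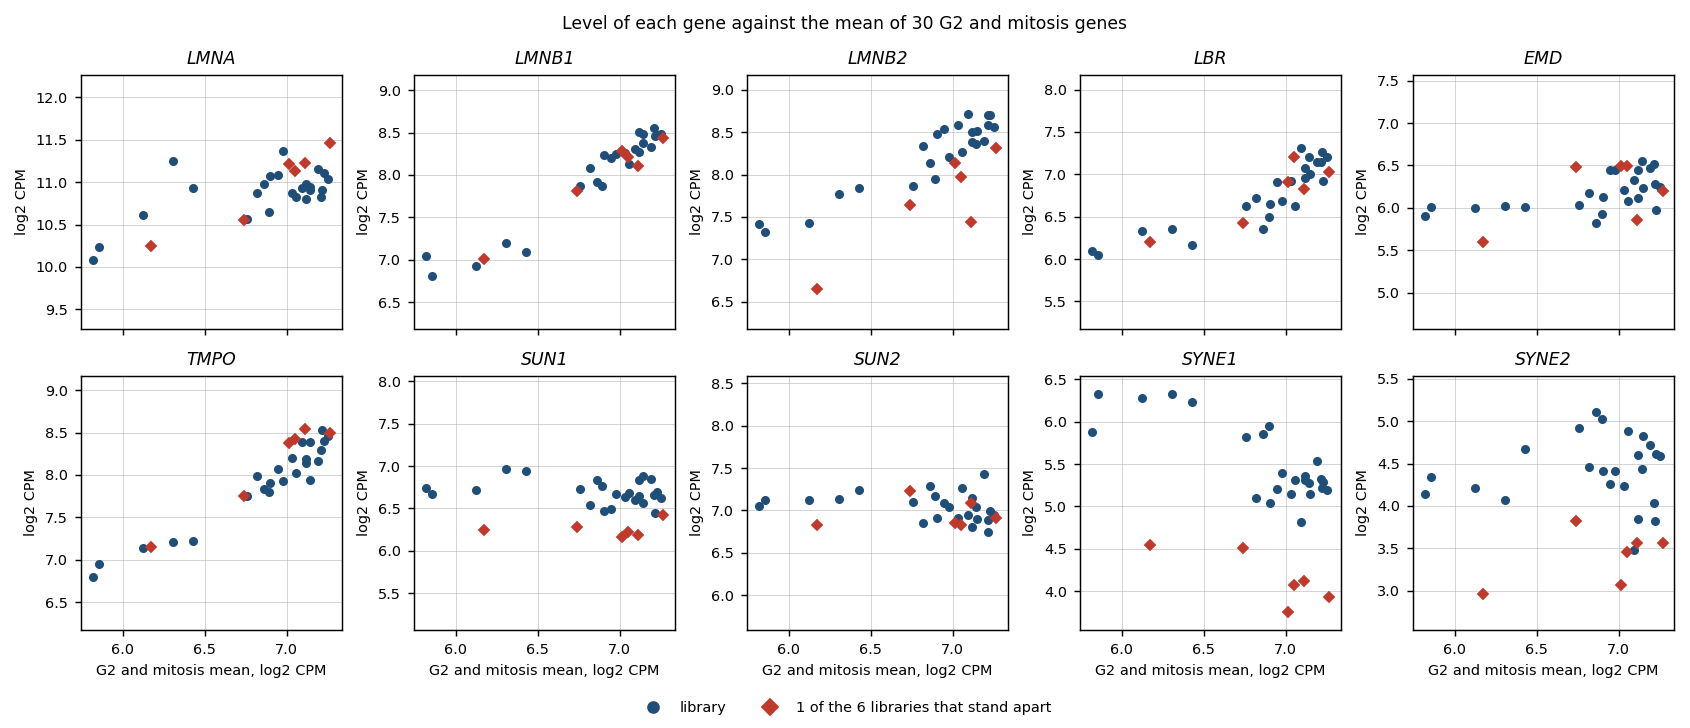
Level of each gene (log2 CPM, all panels spanning 3 log2 units) against the mean of 30 G2 and mitosis genes (log2 CPM), 1 point per library, with the 6 libraries that stand apart as red diamonds. LMNB1, TMPO and LBR follow the mean across its range, with the 6 low libraries at the left, while SUN2 is nearly level and SYNE1 falls.

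The promoters of LMNB1 and TMPO, the genes with the steepest slopes, are shown because genes of the G2 phase are known to be driven from CCAAT boxes and cell cycle homology regions (CHR), and S phase genes from E2F sites. The windows run from 250 bases before to 50 bases after an annotated start site, 5′ to 3′ on the gene's strand, from RefSeq with the build GRCh38.p14, with capitals marking CCAAT in either orientation. LMNB1 lies on chromosome 5, plus strand, and the window printed is that of the second of its 2 listed starts (chr5:126776886-126777185). TMPO lies on chromosome 12, plus strand, and the window is that of the first of its 2 listed starts (chr12:98515323-98515622).
LMNB1: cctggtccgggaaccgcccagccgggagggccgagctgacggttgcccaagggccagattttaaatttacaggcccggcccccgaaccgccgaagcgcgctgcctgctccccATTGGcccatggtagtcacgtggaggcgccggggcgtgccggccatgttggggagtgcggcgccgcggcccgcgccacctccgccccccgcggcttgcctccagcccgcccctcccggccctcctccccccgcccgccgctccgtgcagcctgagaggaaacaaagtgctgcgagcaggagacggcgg
TMPO: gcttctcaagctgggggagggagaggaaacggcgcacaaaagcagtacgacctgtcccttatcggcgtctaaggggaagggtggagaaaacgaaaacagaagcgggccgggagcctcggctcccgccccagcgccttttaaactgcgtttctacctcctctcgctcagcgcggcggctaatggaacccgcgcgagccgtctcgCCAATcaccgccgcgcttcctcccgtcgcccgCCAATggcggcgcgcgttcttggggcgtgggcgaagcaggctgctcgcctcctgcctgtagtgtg
The LMNB1 window held 1 CCAAT box, 138 to 134 bases before the start on the reverse strand, and the TMPO window held 2 on the forward strand, 47 to 43 and 15 to 11 bases before it. Neither window held TTTGAA, the CHR element, or the E2F letters TTCCCGC or TTGGCGC, on either strand. Among the other steep-slope genes, LBR held none of these motifs and LMNB2 held TTTGAA, 246 to 241 bases before its start, but no CCAAT. The window of the upstream LMNB1 start held none either. CCAAT was also found in a window of LMNA, EMD (2 matches), SYNE1, which was lower with the mean, and SYNE2 and SUN2, which did not pass. The SUN2 window held 2 CCAAT and 1 TTTGAA. E2F letters were found in a window of LMNA, 22 to 16 bases before the start, and in another window of SYNE2, 23 to 17 bases before it. At least 1 CCAAT was found in 34.6% of all 35116 windows of the table, and 2 or more in 10.8%. TTTGAA was in 15.2% and either E2F run in 9.23% of them. These shares are per window, and a gene with several windows had more chances of a match. The table covered 9 of the 10 genes, with 20 windows. SUN1 had none. Which start site the cells used was not measured.

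LMNA, the A-type lamin gene, had its highest mean in Bottom 10 positive cells, 2261 ± 486 CPM, and its lowest in Top 10 negative cells, 1541 ± 361 CPM (SD, n = 3 each). Its libraries held 2019, 1945 and 2820.5 CPM in Bottom 10 positive cells, against 1519.8, 1564 and 2106 in Top 10 positive cells. In the negative sort they held 1812, 1609 and 2213 CPM in Bottom 10 cells, against 1497, 1204 and 1922 in Top 10 cells. The ranges overlap in both sorts, but within each replicate number the Bottom 10 library was the higher one. The log2 fold change was 0.39 ± 0.26 in the positive sort (edgeR adjusted p = 0.775, 95% interval -0.15 to 0.92) and 0.29 ± 0.26 in the negative sort (edgeR adjusted p = 0.944, interval -0.25 to 0.82). Bottom 10 positive replicate 3, the highest LMNA library, stands apart, and without the 6 libraries the positive-sort value was 0.18. All 30 G2 and mitosis genes had a log2 fold change above 0 between Bottom 10 and Top 10 negative cells, with a median of 0.35. By edgeR 1 of them had an unadjusted p under 0.05 and 0 passed the test. With their mean as a covariate the LMNA value there was 0.071. In the positive sort the LMNA value with this covariate was 0.31 ± 0.20 (edgeR adjusted p = 0.582). Being higher in 3 of 3 pairs was true of 24.5% of all genes in the positive and 23.9% in the negative sort.

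Libraries of the Top 10 and Bottom 10 groups with the same replicate number resembled each other, so a fit of these 4 groups with replicate number as a block was run as an alternative. In it LMNA came closest to the threshold, with a log2 fold change of 0.38 ± 0.11 between Bottom 10 and Top 10 positive cells (edgeR adjusted p = 0.0693) and 0.30 ± 0.11 in the negative sort (edgeR adjusted p = 0.14). LMNB2, a B-type lamin gene, was second, at 0.47 ± 0.15 in the negative sort (edgeR adjusted p = 0.0883), where the fit with the G2 and mitosis mean as a covariate gave -0.025. The block fit called 7.75% of all genes in the positive and 9.29% in the negative sort, and 0.83% and 0.24% between the sorts in Bottom 10 and in Top 10 cells, and again none of the 10.

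**Figure D4:**
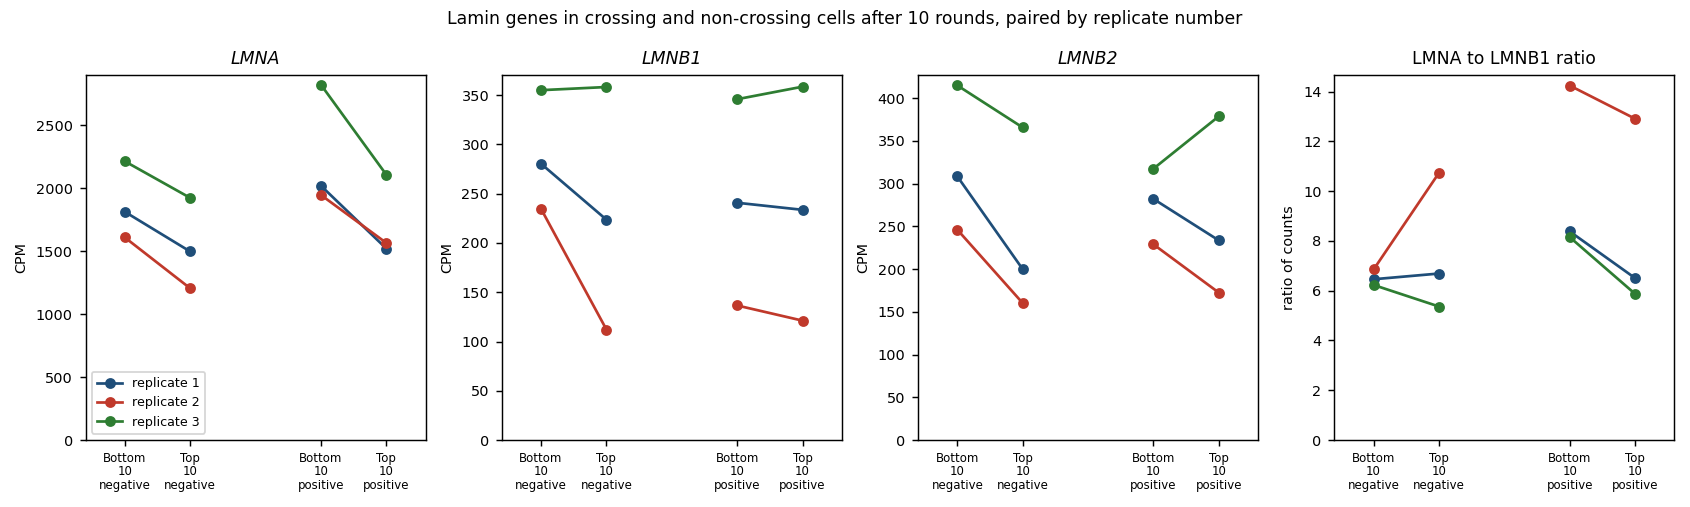
LMNA, LMNB1 and LMNB2 (CPM, axes from 0) and the ratio of LMNA to LMNB1 counts in Bottom 10 and Top 10 cells of each sort; lines join libraries with the same replicate number. LMNA is higher in Bottom 10 cells in 3 of 3 pairs of each sort, as 24.5% (positive) and 23.9% (negative) of all genes were. Libraries with the same replicate number resembled each other across the sorts, so the pairs of the sorts are not independent. LMNB1 and LMNB2 separate the replicate numbers more than the groups.

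Between the sorts LMNA did not pass the test, and its mean was the higher one in ITGB4-positive cells in each of 3 populations. Parental positive libraries held 2169, 1956 and 2025 CPM, against 1080.4, 1879 and 1877 in Parental negative cells, without overlap (log2 fold change 0.35 ± 0.26, edgeR adjusted p = 1). Such a separation upward was seen for 4.47% of all genes. The same comparison gave 0.27 ± 0.26 in Bottom 10 cells and 0.17 ± 0.26 in Top 10 cells, higher in 3 of 3 pairs in each (edgeR adjusted p = 1 for both, and 0.33 and 0.806 with the replicate block), as 18.5% and 19.7% of all genes were. Without the 6 libraries the Bottom 10 value was 0.077. All 30 G2 and mitosis genes had a log2 fold change above 0 between the Parental sorts, with a median of 0.40, against -0.01 over all genes. By edgeR 0 of the 30 had an unadjusted p under 0.05. Their mean was 5.82 log2 CPM in Parental negative replicate 1, which is also the low LMNA library. It was 6.82 and 7.03 in replicates 2 and 3 of that group, and 6.94 to 7.12 in Parental positive cells. With that mean as a covariate the LMNA difference between the Parental sorts was 0.15 (edgeR adjusted p = 1). The difference between the sorts was then 0.12 in Top 10 cells and 0.36 ± 0.20 in Bottom 10 cells (edgeR adjusted p = 0.747 in Bottom 10).

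After fewer rounds LMNA stood at 2441, 2245 and 1921 CPM in Bottom 5 negative cells, all above the 1080.4, 1879 and 1877 CPM of Parental negative cells. The log2 fold change was 0.45 ± 0.26 (edgeR adjusted p = 0.662), and 7.15% of all genes separated in that direction. With replicate number as a block in these groups the value was 0.50 (edgeR adjusted p = 0.288), in a fit that called 3.82% of all genes. The negative sort after 4 crossings held 2279, 2399.8 and 1809 CPM, which overlapped Parental negative cells (log2 fold change 0.42 ± 0.26, edgeR adjusted p = 0.363). Parental replicate 1, at 1080.4 CPM, was the lowest LMNA library of all and is also 1 of the 6 with a low G2 and mitosis mean. The positive sort after 5 crossings held 1967, 2651 and 1784 CPM and Top 5 positive cells 1211, 2159.9 and 2372 CPM, on both sides of the Parental positive libraries, with log2 fold changes of 0.06 ± 0.26 and -0.10 ± 0.26. Against Parental cells of the same sort, Bottom 10 cells differed by 0.14 ± 0.26 in the positive and 0.22 ± 0.26 in the negative sort, and Top 10 cells by -0.24 ± 0.26 and -0.07 ± 0.26, in the same order of sorts. Without the 6 libraries the Bottom 10 positive value turned to -0.070 and the Top 5 value to 0.068. With the G2 and mitosis mean as a covariate the values were 0.010 for Bottom 10 negative and 0.22 for Bottom 10 positive cells. They were 0.37 for Bottom 5 negative cells and 0.17 for the negative sort after 4 crossings. These comparisons share the Parental libraries.

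LMNB1 and LMNB2 differed between replicates more than between groups. LMNB1 libraries held 241, 137 and 346 CPM in Bottom 10 positive cells and 234, 121 and 359 CPM in Top 10 positive cells. In the negative sort they held 280.4, 235 and 355 CPM in Bottom 10 cells and 224, 112 and 358 CPM in Top 10 cells. Replicate 2 was the lowest in all 4 groups and replicate 3 the highest. The log2 fold change between Bottom 10 and Top 10 cells was 0.02 ± 0.43 in the positive and 0.33 ± 0.43 in the negative sort, within the spread of the replicates. Both turned with the G2 and mitosis mean as a covariate (-0.13 and -0.18), and the positive-sort value was -0.35 without the 6 libraries. Elsewhere LMNB1 stood at 331, 304 and 363 CPM in the positive sort after 5 crossings and 321, 275 and 377 in the negative sort after 4, at 147, 297 and 351 in Bottom 5 negative and 129, 301 and 312 in Top 5 positive cells. Parental cells held 294, 316 and 308 CPM in the positive and 132, 272 and 306 in the negative sort. In 6 of the groups 1 library lay below 150 CPM, and each of these was the library of its group with a low G2 and mitosis mean.

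LMNB2 had 282, 229 and 318 CPM in Bottom 10 positive cells, all below the 373, 419 and 335 CPM of Parental positive cells. The log2 fold change was -0.44 ± 0.40 (edgeR adjusted p = 0.767), and 9.08% of all genes separated downward there. The other group means of LMNB2 ran from 242 ± 109 CPM in Top 10 negative to 329 ± 34.1 CPM in the positive sort after 5 crossings (SD, n = 3 each). LMNB2 overlaps TIMM13 in the annotation, and whether counting used strand is not given in the sources used here.

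Among the inner membrane genes, LBR, which tethers heterochromatin and also carries sterol reductase activity, held 81.8, 71.8 and 130.3 CPM in Bottom 10 positive and 99.1, 80.2 and 148 CPM in Top 10 positive cells. It was lower in Bottom 10 cells in 3 of 3 pairs (log2 fold change -0.20 ± 0.30, edgeR adjusted p = 0.93, against 22.6% of all genes), but the ranges overlapped. Its negative sorts held 98.3, 89.9 and 121 CPM in Bottom 10 and 85.5, 66.0 and 128 CPM in Top 10 cells, higher in 2 of 3 pairs (0.14 ± 0.29). Without the 6 libraries the values were -0.52 in the positive and 0.078 in the negative sort, and with the G2 and mitosis mean as a covariate -0.32 and -0.21. The difference of these effects between the sorts was -0.35 ± 0.42 (edgeR adjusted p = 0.998) and -0.60 without the 6 libraries, and no gene of the whole table passed that interaction test. Parental positive cells held 119.8, 158 and 124 CPM and Parental negative cells 68.3, 106 and 121 CPM, which gave a log2 difference of 0.45 ± 0.30 (edgeR adjusted p = 1).

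EMD, which encodes the LEM-domain protein emerin, was among the steadiest, at 48.3 to 93.5 CPM over all libraries. The positive sort after 5 crossings held 93.5, 87.3 and 87.1 CPM, all above the 86.9, 80.4 and 69.3 CPM of Parental positive cells. The gap was small, 0.18 ± 0.20 on the log2 scale (edgeR adjusted p = 1), and 7.12% of all genes separated upward. Bottom 10 negative cells held 67.5, 60.8 and 62.6 CPM and Top 10 negative cells 88.9, 64.3 and 75.3 CPM, lower in Bottom 10 in 3 of 3 pairs (-0.26 ± 0.20, edgeR adjusted p = 0.892), as 22.6% of all genes were. In the positive sort the difference was -0.08 ± 0.20. Top 10 negative replicate 1, the highest EMD library of its group, stands apart, and without the 6 libraries the values were -0.14 for the negative sort and -0.20 for the positive one. With the G2 and mitosis mean as a covariate they were -0.42 and -0.13.

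TMPO, the gene of the LAP2 proteins, held 228, 149 and 359 CPM in Bottom 10 positive and 215, 141 and 352 CPM in Top 10 positive cells, and 259, 223 and 338 CPM in Bottom 10 negative and 216, 123 and 335 CPM in Top 10 negative cells. The replicates kept the order seen for LMNB1, with replicate 2 lowest and replicate 3 highest in each of the 4 groups. The negative sort after 4 crossings, at 286, 373 and 315 CPM, had the highest group mean, and its log2 fold change over Parental negative cells, at 111, 253 and 293 CPM, was 0.57 ± 0.41 (edgeR adjusted p = 0.446). With the G2 and mitosis mean as a covariate this difference was -0.071. An antisense gene, TMPO-AS1, overlaps TMPO.

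In the LINC complex, SUN2 varied least of all 10 genes, at 107 to 172 CPM, with log2 fold changes of -0.19 to 0.21. SUN1 held 75.7, 88.6 and 71.5 CPM in Top 5 positive cells, all below the 89.7, 97.0 and 114 CPM of Parental positive cells, and SUN2 likewise held 114, 120.3 and 116 CPM, below 135, 123 and 141 CPM. In that comparison 9.61% of all genes separated downward. The log2 fold changes were -0.35 ± 0.19 for SUN1 and -0.19 ± 0.16 for SUN2 (edgeR adjusted p = 0.315 and 0.491). Replicates 1 and 3 of Top 5 positive are among the libraries that stand apart, and without the 6 the values were -0.19 ± 0.18 and -0.16 ± 0.21 (edgeR adjusted p of 1 for each), from 1 Top 5 library assumed to vary like the rest. SUN1 was also higher in Bottom 10 negative cells, at 103, 108 and 103 CPM, than in Top 10 negative cells, at 77.4, 102 and 94.2 CPM, without overlap (8.68% of all genes; log2 fold change 0.20 ± 0.19, edgeR adjusted p = 0.949). Without the 6 libraries, which include Top 10 negative replicate 1, that value was 0.09 ± 0.14.

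SYNE1 and SYNE2, which encode giant nesprins, spread over the widest range, 13.4 to 80.3 and 7.70 to 34.4 CPM. Both are long genes, and the libraries that stand apart held the lowest values: SYNE1 lay at 13.4 to 23.2 CPM in these 6, against 28.2 to 80.3 in the other 24. SUN1 also separated, at 71.5 to 85.4 CPM in the 6 and 86.8 to 125 in the 24. The 6 were picked along a component of all genes, and the share of all genes that separate them was not counted. The separation thus cannot be read as particular to SYNE1 and SUN1. SYNE2 overlapped, at 7.70 to 14.0 and 11.1 to 34.4 CPM, and so did SUN2, at 113 to 149.8 and 107 to 172 CPM. The share of reads that fell on more than 1 gene differed beside it, at 1.85 to 2.27% in the 6 and 1.54 to 1.74% in the 24, and the part of RNA quality or library preparation was not tested.

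**Figure D5:**
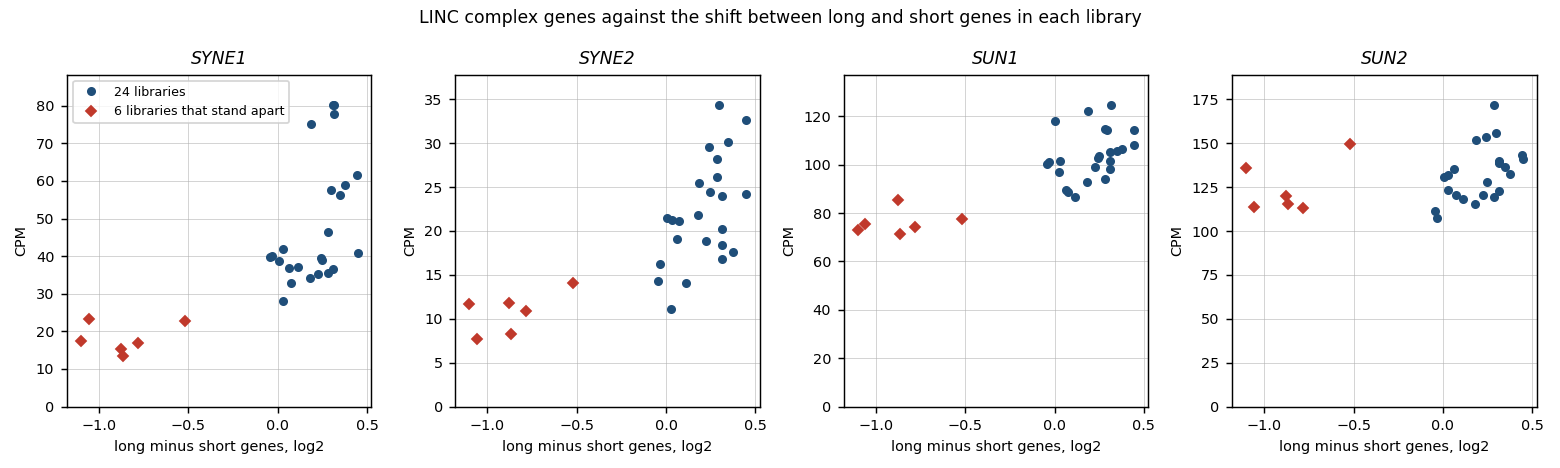
CPM of the 4 LINC complex genes (axes from 0) against the median of the longest 10% of genes less that of the shortest 10% in each library (log2 deviations from the mean over libraries), 1 point per library. The 6 libraries that stand apart lie at the left, below -0.5, and hold the 6 lowest SYNE1 and SUN1 values.

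Some group differences of the nesprin genes depend on those libraries. SYNE1 held 57.7, 75.1 and 15.2 CPM in Bottom 10 positive cells, where replicate 3 stands apart, 56.2, 77.7 and 36.6 CPM in Top 10 positive cells and 36.8, 28.2 and 40.9 CPM in Parental positive cells. Its log2 fold change over Parental cells was 0.48 ± 0.53 for Bottom 10 and 0.69 ± 0.54 for Top 10 positive cells, and without the 6 libraries 0.89 ± 0.37 and 0.68 ± 0.34 (edgeR adjusted p = 0.3 and 0.365). In the negative sort it held 39.5, 61.5 and 38.9 CPM in Bottom 10 cells, 22.7, 80.2 and 35.4 in Top 10 cells and 58.9, 34.2 and 35.2 in Parental cells. The highest SYNE1 library of each of these groups, except Parental positive, was the replicate with the lowest G2 and mitosis mean of its group. SYNE1 overlaps ESR1 and SYNE1-AS1, SYNE2 overlaps ESR2, SUN1 overlaps GET4, and SUN2 overlaps GTPBP1 and DNAL4.

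SYNE2 was higher in Bottom 10 negative cells, at 29.5, 32.6 and 24.4 CPM, than in Parental negative cells, at 17.6, 21.9 and 18.8 CPM, without overlap (log2 fold change 0.57 ± 0.39, edgeR adjusted p = 0.89). Upward separation was seen for 9.03% of all genes. No library of these groups stands apart, and in the fit without the 6 the value was 0.56 ± 0.27 (edgeR adjusted p = 0.427). Bottom 5 negative cells, at 16.8, 10.9 and 14.1 CPM, lay below all Parental negative libraries (-0.48 ± 0.39, edgeR adjusted p = 0.794, with 6.59% of all genes separating downward), and replicate 2 of these cells stands apart; without the 6 libraries the value was -0.35. Top 5 positive cells held 7.70, 21.2 and 8.27 CPM, and the log2 fold change over Parental positive cells, -0.55 ± 0.40, was 0.21 ± 0.38 without the 6 libraries, which leaves replicate 2 alone in that group.

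The ratio of LMNA to LMNB1 counts, a measure of A-type over B-type lamin transcripts that needs no scaling between libraries, had a median of 7.01 over the 30 libraries and ran from 4.80 to 16.6. It was 8.38, 14.2 and 8.15 in Bottom 10 positive, against 6.5, 12.9 and 5.87 in Top 10 positive cells, higher in 3 of 3 pairs. In the negative sort it was 6.46, 6.85 and 6.23 in Bottom 10, against 6.69, 10.7 and 5.37 in Top 10 cells, with no common direction. Parental cells had 7.37, 6.18 and 6.58 in the positive and 8.17, 6.92 and 6.14 in the negative sort. The highest ratios came from single libraries: 16.6 in Bottom 5 negative replicate 1 and 14.2 in Bottom 10 positive replicate 2. Both belong to the 6 libraries with a low G2 and mitosis mean, which held 8.17 to 16.6, against 4.80 to 8.74 in the other 24. The ratio is a description and was not tested.

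Of the other genes of the nuclear envelope, 1 was called in the 13 comparisons. Over all 15381 tested genes these comparisons gave 986 calls together, at 0% to 2% of genes by comparison. A single call in these lists is not above that background. LMO7, an emerin-binding protein that also sits at cell junctions and is known to activate the emerin gene, was higher in Bottom 10 than in Top 10 negative cells. It held 37.9, 60.0 and 43.9 CPM in Bottom 10 negative cells, against 18.2, 25.6 and 19.7 CPM in Top 10 negative cells, without overlap. The log2 fold change was 1.16 ± 0.27 (edgeR adjusted p = 0.0262), higher in 3 of 3 pairs, in a comparison that called 1.33% of all genes, while EMD itself had -0.26 ± 0.20. In the positive sort LMO7 held 38.3, 36.7 and 33.5 CPM in Bottom 10 and 26.4, 30.2 and 31.2 CPM in Top 10 cells, and the Parental positive and negative cells held 64.5, 75.2 and 53.8 and 34.3, 48.2 and 63.0 CPM. In the negative sort the mean was thus level between Parental (48.5 CPM) and Bottom 10 cells (47.3) and low in Top 10 cells (21.1). In the positive sort Bottom 10 (36.1) and Top 10 cells (29.3) both lay below Parental cells (64.5). The call stood with RLE factors, DESeq2, replicate blocks, the G2 and mitosis mean as a covariate and within 24 libraries. It also stood without Top 10 negative replicate 2 or Bottom 10 negative replicate 1. By edgeR the call ended without Bottom 10 negative replicate 2 (adjusted p = 0.243), without Top 10 negative replicate 1 (0.179) or replicate 3 (0.0900), without Bottom 10 negative replicate 3 (0.0524), without the 6 libraries (0.123), with no filter on low counts (0.0561) and with only the compared groups in the fit (0.0622).

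The remaining lists held no call. LMO7 was 1 of 14 cytoskeletal partners of the LINC complex, whose median log2 fold change ran from -0.23 to 0.04 over the 13 comparisons, while the median of all genes ran from -0.01 to 0.05. Of 7 genes of lamin farnesylation, cleavage and regulation, 15 other inner membrane and lamina-associated genes, 2 other SUN and KASH genes, 14 genes of envelope sealing by ESCRT-III, 30 nuclear pore genes and 11 genes of heterochromatin at the lamina, 0 passed in any comparison. Their medians ran from -0.16 to 0.27 for lamin processing, -0.12 to 0.11 for the inner membrane, -0.12 to 0.18 for envelope sealing, -0.38 to 0.22 for the nuclear pore and -0.18 to 0.25 for heterochromatin. The 2 other SUN and KASH genes tested, SPAG4 and SYNE3, had medians of -0.53 to 0.61. The 10 genes described here had medians of -0.34 to 0.27. Against the G2 and mitosis mean the fit called 21.3% of all genes higher and 24.3% lower. Upward calls among cytoskeletal partners and envelope sealing genes, given below, lay near the 21.3%. For the nuclear pore the fit called 22 of 30 higher and 1 lower, with a median slope of 0.50 against -0.04 over all genes. It called 4 of 7 higher and 1 lower for lamin processing, 6 of 15 higher and 2 lower for the inner membrane, 0 of 2 higher and 1 lower for SPAG4 and SYNE3, 4 of 14 higher and 1 lower for cytoskeletal partners, 4 of 14 higher and 3 lower for envelope sealing and 6 of 11 higher and 1 lower for heterochromatin.

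The genes whose level followed LMNB1 most closely over the 30 libraries, by Pearson's r of log2 CPM, were TRIP13, a meiotic and spindle checkpoint ATPase (0.98), TUBB, a β-tubulin (0.97), and GTSE1, which is expressed in G2 and S phase (0.97). Spearman's rho was 0.95, 0.93 and 0.87, in the same order. For LMNA they were ABCB9, a lysosomal peptide transporter (0.86), ZNF367, a zinc finger protein (0.85), and CDK2, a kinase of the S phase (0.84), with rho of 0.82, 0.68 and 0.67. Both sets of correlations share the 6 libraries with a low G2 and mitosis mean and are descriptions over 30 libraries, without a test.

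The effect of crossing was not shown to depend on the sort, nor the effect of the sort on crossing. In the test of Bottom 10 against Top 10 cells between the sorts, and of the sort effect between Bottom 10 and Parental cells, 0 of 20 tests of the 10 genes passed, with a smallest unadjusted p of 0.186, for LBR in the second. The share of all genes called was 0% in both.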

How the data were processed

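Polyadenylated RNA of 30 A375 samples was counted per gene. Per the submitters' processing notes, the authors used STAR, HTSeq and DESeq with the build hg19, and deposited raw read counts per gene. Their versions, annotation and strand setting are not given in the sources used here. Reads not assigned to a gene, 22.1% to 31.8% per library, were left out of library sizes. The 10 genes and all gene lists were chosen with earlier results of these data known.

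Samples were grouped by population and sort from the labels. All libraries were fitted together in edgeR 4.0.16 (R 4.3.3), with TMM factors, a filter that needs 10 counts (15381 genes kept), the quasi-likelihood test and Benjamini-Hochberg adjustment over all genes at 0.05. Values after ± are standard errors unless called SD, and intervals are 95% confidence intervals. CPM for log values had a prior count of 2. The scripts were tested on simulated data. Replicate numbers were taken to pair samples where every same-number correlation of deviations from the group means exceeded 0.1: 5 of 13 comparisons, with r of 0.265 to 0.791. The labels state no pairing. Alternatives were DESeq2 1.42.0, RLE factors, no filter, replicate blocks, fits of the compared groups alone and each library left out. The fits without the 6 libraries, within 24 libraries and with the G2 and mitosis mean were added after the data had been seen. Named were the 10 genes, list genes past the test and the 3 genes most like LMNA and LMNB1. Exon lengths are from GENCODE.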

Additional observations from a re-analysis of the deposited data

Results flagged for a closer look

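Over 13 pairs of parallel comparisons and the 10 genes, 3 results stood out because every replicate pair, or every library, lay on opposite sides in the 2 comparisons. LMNB1 had a log2 difference between the sorts of 0.04 in Top 10 cells, higher in 3 of 3 pairs, and of -0.27 in Bottom 10 cells, higher in 0 of 3. Over all genes 19.7% were higher in 3 of 3 pairs in Top 10 cells and 17.9% lower in 3 of 3 in Bottom 10 cells. The difference of these effects was 0.31 ± 0.61 (edgeR adjusted p = 0.998). LMNB2 did the same, with 0.11 in Top 10 and -0.23 in Bottom 10 cells and a difference of 0.34 ± 0.57 (edgeR adjusted p = 0.998). The standard errors exceed both differences. Without the 6 libraries in which long genes were low, LMNB1 had 0.028 in Top 10 and -0.62 in Bottom 10 cells, and LMNB2 0.0037 and -0.34. There the effect of Bottom 10 over Top 10 cells differed between the sorts by -0.65 ± 0.69 for LMNB1 (positive less negative). SYNE2 had a log2 fold change of 0.57 in Bottom 10 over Parental negative cells and of -0.48 in Bottom 5 over Parental negative cells, with every migrated library above every Parental library after 10 rounds and below after 5. The test of Bottom 10 against Bottom 5 negative cells gave 1.05 ± 0.40 (unadjusted p = 0.0138 and edgeR adjusted p = 0.538). SYNE2 was picked on these same libraries, over 13 pairs of comparisons and 10 genes, so the unadjusted p cannot be taken at face value. The share of all genes with such opposite moves was not counted. Bottom 5 negative replicate 2 is 1 of the 6 libraries in which long genes were low, and without these 6 the values were 0.56 in Bottom 10 and -0.35 in Bottom 5 cells, a difference of 0.91.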

How the results depend on the processing

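None of the 10 genes was called under any alternative: 0 in each of 13 comparisons with RLE factors, no filter, a replicate block, only the compared groups, DESeq2, the G2 and mitosis mean as covariate, without the 6 libraries and within 24 libraries, and 0 in 78 fits that left out a library, where the smallest adjusted p was 0.0622 (edgeR, SYNE2 in Top 5 against Parental positive cells without Top 5 replicate 2). Calls over all genes, summed over 13 comparisons, were 986, against 973 with RLE factors, 749 without a filter, 202 in the compared groups alone, 906 without the 6 libraries, 379 within 24 libraries, 2304 with the covariate and 2418 with DESeq2. With a replicate block the sum was 1475. With the block in the 4 Top 10 and Bottom 10 groups it was 2641, against 352 without, and in Bottom 5 against Parental negative cells 542, against 132. The block changed no call among the 10 genes in group comparisons. Of 130 log2 fold changes, 17 turned without the 6 libraries and 35 with the covariate, and most of these were smaller than their standard error. Of the 37 at least as large as it, 1 and 5 turned. Those, and differences of sort effects as large, turned with the covariate for TMPO between the Parental sorts (-0.051), LMNB2 in Bottom 10 against Top 10 negative cells (-0.025), LMNB1 (-0.28), LBR (-0.034) and TMPO (-0.071) in the negative sort after 4 crossings, and the difference of sort effects between Bottom 10 and Parental cells for LMNB1 (0.13), LMNB2 (0.063) and TMPO (0.086). SYNE2 in Top 5 against Parental positive cells was 0.21 without the 6 libraries. SUN2 in the negative sort after 4 crossings ran from -0.012 to 0.33 when a library was left out. None of these was called in any fit. The number of genes that followed the G2 and mitosis mean was 7, where the fit called 45.6% of all genes. It was also 7 in all 30 fits that left out a library, which called 38.9% to 50.3% of all genes. With the replicate block it was 6 (EMD lost, edgeR adjusted p = 0.0618), at 26.7% of all genes. It was 5 without the 2 libraries farthest from the median mean (LMNA and EMD lost), at 36.4% of all genes. Within 24 libraries it was 4, at 9.06% of all genes, and the uncalled slopes of SUN1 (0.035) and SYNE2 (-0.67) turned there. The SYNE2 slope ran from -0.057 to 0.21 when a library was left out. The cause was not tested. With 3 libraries a group, standard errors of 0.16 to 0.54 limit which log2 fold changes can be seen.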
